A study of Mus musculus with 10 samples.

Results

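Transient receptor potential (TRP) channels are cation channels of the cell membrane, and several of them open with heat or cold. The set described here is 10 such genes, Trpm2, Trpm3, Trpm4, Trpm8, Trpv1, Trpv2, Trpv4, Trpa1, Trpc4 and Trpc5, chosen by name. Each probe set that the platform annotation ties to exactly 1 gene, and to 1 of these, was taken, which gave 18 probe sets of the 45037 on the array that are not controls, and no probe set named a member together with another gene. The tested mice were labelled mPGES-1 KO, lacking microsomal prostaglandin E synthase-1 (gene Ptges), which makes prostaglandin E2 in inflammation. They were compared with mice labelled WT, 5 of each, with each array taken as 1 mouse. All 10 mice were of the DBA1/lacJ background and had received 120 µg/kg lipopolysaccharide (LPS), a bacterial cell wall component that causes fever, into the peritoneum. RNA came from the preoptic region of the hypothalamus, cut out by laser 5 h later and amplified in 2 rounds. Mice without LPS were not analysed here, so no value below describes the response to LPS, and the labels give neither the age of the mice nor the part of Ptges that was deleted. With 5 arrays a group, precision is limited by their number.

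The preoptic region holds the neurons that set body temperature, and prostaglandin E2 acts on them to raise the set point in fever. Warmth changes the firing of some of these neurons, and TRP channels have long been candidates for the sensor. In mice, TRPM2 has been described as a warmth sensor of preoptic neurons that limits fever, while TRPM8 (cold), TRPV1 (noxious heat) and TRPA1 (irritants) are best known from sensory neurons of the dorsal root and trigeminal ganglia.

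The samples as a whole were checked first. Ptges, the deleted gene, went against the labels. Its probe set 1439747_at read 17.5 to 76.1 on the arrays labelled knockout and 1.51 to 9.33 on those labelled wild-type, with no overlap, and it passed the background limit described below on 4 arrays labelled knockout and 0 labelled wild-type. Probe set 1449449_at read 9.83 to 60.2 on the arrays labelled knockout and 1.25 to 34.6 on those labelled wild-type and passed on 4 and 0 arrays. The third, 1449450_at, read 22.2 to 61.5 on the arrays labelled knockout and 2.75 to 57.8 on those labelled wild-type and passed on 4 and 1. Whether these probe sets lie in the deleted part was not analysed here, so the groups keep their labels throughout, and every direction below rests on labels that the targeted gene goes against. Of 20 preoptic and hypothalamic marker genes, 15 were measured and 10 were above background, among them Gal, Esr1, Pgr and Adcyap1, whereas the transcription factor genes Hmx2, Hmx3, Sim1 and Nkx2-1 were not. Knockout replicate 3 stood apart in transthyretin (Ttr), the defining transcript of choroid plexus, with an intensity of 6161 on the probe set used, against 75.5 to 326 on the other arrays labelled knockout and 195 to 446 on those labelled wild-type. Spiked bacterial poly-A control RNA was seen on 7 arrays but not on knockout replicate 3 and wild-type replicates 2 and 5.

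No detection calls were used, so background was taken from gene families assumed, without a test here, not to be expressed in brain. On each array a probe set counted as above background where its intensity was over the 95th percentile of 126 probe sets for olfactory, vomeronasal and bitter taste receptors and keratin-associated proteins. That limit lay between 20.9 and 50.9 on the arrays labelled knockout and between 35.2 and 74.1 on those labelled wild-type. A gene counted as above background if 1 of its probe sets passed on at least 8 of the 10 arrays, whatever their group. By this rule 10506 of the 18193 genes with a probe set of their own, or 57.7%, were above background, and 3 of the 126 background probe sets met it themselves.

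Trpm2, Trpm3, Trpm4, Trpv2 and Trpc4 were above background in the preoptic samples, and Trpm8, Trpv1, Trpv4, Trpa1 and Trpc5 were not. That is 5 of 10 members, against 57.7% of all genes. In probe sets, 6 of 18 passed, against 17735 of all 45037, and neither member count stood above the share over the whole array. Of the 12 that did not pass, 6 were under the limit on every array. Trpm3, Trpm4 and Trpc4 also passed with the 99th percentile as the limit and when all 10 arrays had to pass, and Trpm2 and Trpv2 did not. Trpm2 passed on exactly 8 arrays, 4 in each group, and Trpv2 on 9, all but wild-type replicate 2. The plot of intensities against the array limits shows the split.

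**Figure D1:**
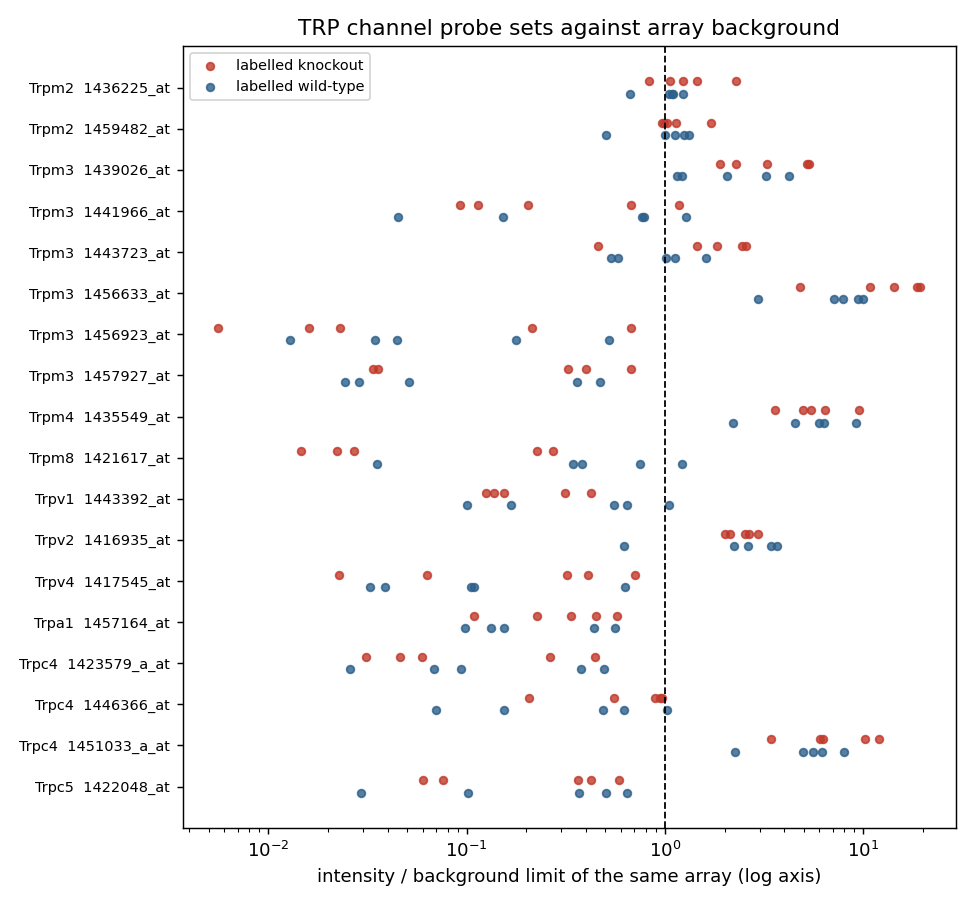
Intensity of each of the 18 TRP channel probe sets divided by the background limit of the same array (horizontal log axis; dashed line at 1), 1 point per array, with arrays labelled knockout in red above those labelled wild-type in blue. The probe sets 1456633_at (Trpm3), 1439026_at (Trpm3), 1435549_at (Trpm4) and 1451033_a_at (Trpc4) lie right of the line on all 10 arrays.

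The position of a probe set along its transcript bears on what a low value shows, because the RNA was amplified from the 3′ end. On the control probe sets for beta-actin, the 3′ end read 112 to 298 times the 5′ end on the arrays labelled knockout and 116 to 355 times on those labelled wild-type. For Gapdh these ratios were 33.2 to 51.5 and 24.6 to 53.4. The 5′ probe set of beta-actin, one of the most abundant transcripts of any cell, read 20.1 to 60.3 on the arrays labelled knockout and 17.3 to 78.8 on those labelled wild-type, which is the level of the background limits. A probe set far from the 3′ end can thus sit at background while the transcript is present, and a member at background here was not detected rather than absent. Where the 18 probe sets lie along their transcripts was not analysed here.

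**Figure D2:**
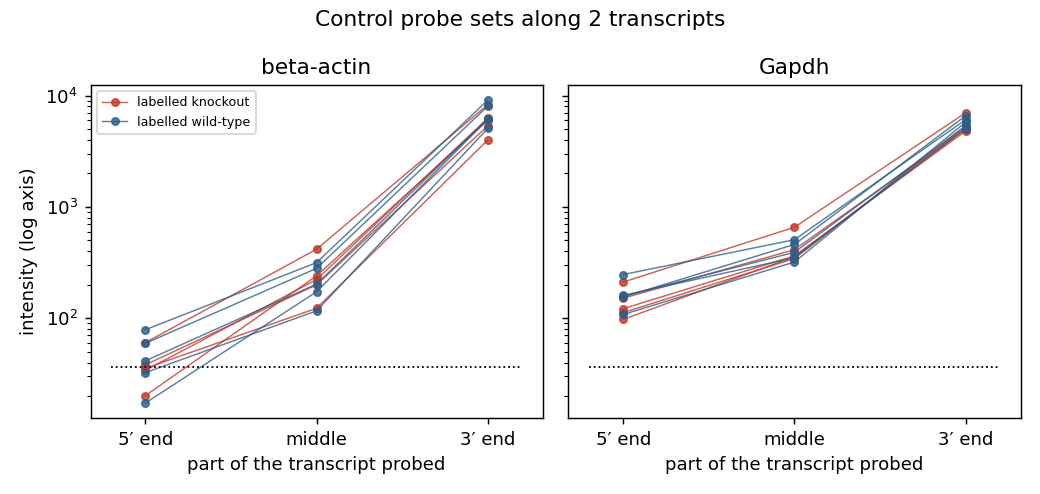
Intensity (vertical log axis) of the control probe sets at the 5′ end, middle and 3′ end of beta-actin and Gapdh, 1 line per array, arrays labelled knockout in red and wild-type in blue; the dotted line is the median background limit, 36.1. On every array the 3′ probe set was the highest, and the 5′ probe set of beta-actin lay around the limit in both groups.

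The number of CpG dinucleotides in the promoter did not divide the members that were above background from those that were not. The 250 bases before the RefSeq start (build GRCm38.p6) were available for 8 of the 10 members, all but Trpm4 and Trpa1, and CpG dinucleotides were counted in them as the letters CG, which read alike on both strands. Among members above background, Trpm3 had 17 CpG at its first listed start and 9 at its second, Trpc4 had 12, Trpm2 had 10, and the 3 starts of Trpv2 had 2, 2 and 5. Among members not above background, Trpv4 had 22, Trpc5 had 7, Trpv1 had 2 and Trpm8 had 1. A CpG-rich and a CpG-poor promoter of each kind are printed below, 5′ to 3′ in the direction of transcription, with each CpG in capitals.
Trpm3, chr19:22138796-22139045, + strand: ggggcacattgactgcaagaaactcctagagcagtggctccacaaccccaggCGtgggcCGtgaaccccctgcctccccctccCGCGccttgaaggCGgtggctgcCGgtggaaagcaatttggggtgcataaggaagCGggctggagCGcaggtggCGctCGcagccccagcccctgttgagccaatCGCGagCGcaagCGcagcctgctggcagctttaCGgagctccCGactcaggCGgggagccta
Trpv2, chr11:62574236-62574485, + strand: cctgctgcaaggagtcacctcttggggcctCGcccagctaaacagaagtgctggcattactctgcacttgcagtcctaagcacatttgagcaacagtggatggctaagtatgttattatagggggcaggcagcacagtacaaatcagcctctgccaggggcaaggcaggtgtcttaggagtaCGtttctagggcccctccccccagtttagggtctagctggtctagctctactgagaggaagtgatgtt
Trpv4, chr5:114658422-114658671, - strand: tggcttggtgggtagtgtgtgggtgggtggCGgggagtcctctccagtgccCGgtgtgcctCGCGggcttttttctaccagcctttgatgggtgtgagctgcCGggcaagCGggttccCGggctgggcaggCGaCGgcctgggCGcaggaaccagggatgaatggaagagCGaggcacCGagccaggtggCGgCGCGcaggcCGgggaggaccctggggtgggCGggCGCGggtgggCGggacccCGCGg
Trpm8, chr1:88306485-88306734, + strand: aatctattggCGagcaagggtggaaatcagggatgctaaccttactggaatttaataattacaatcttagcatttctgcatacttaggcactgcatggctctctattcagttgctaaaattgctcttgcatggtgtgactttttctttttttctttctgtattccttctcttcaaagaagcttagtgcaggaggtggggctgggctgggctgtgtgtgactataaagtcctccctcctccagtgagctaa
Of 32851 mouse promoters of this length, with a median of 6 CpG, 23.5% held as many as the Trpm3 promoter or more and 14.8% as many as that of Trpv4 or more. At the other end, 29% held as few as the first Trpv2 promoter or fewer and 18.8% as few as that of Trpm8 or fewer. These counts describe the letters in the window and say nothing of the factors that act there.

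No member passed the test between the genotypes. Of the 18 probe sets, 0 passed a limma adjusted p below 0.05 over the 45037 tested, where the share of all probe sets that passed was also 0%. At an unadjusted p below 0.05 there was 1 of 18, Trpm8, against 12.6% of all probe sets, and in 0 of 18 were the 5 arrays of one group wholly apart from those of the other, against 3.22% of all probe sets. Neither member count stood above the share over the whole array. Of the 5 members above background, 1 (Trpm3) was higher and 4 were lower in the mice labelled knockout, with a median log2 difference of -0.14, against -0.0022 over all genes whose probe set was above background.

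**Figure D3:**
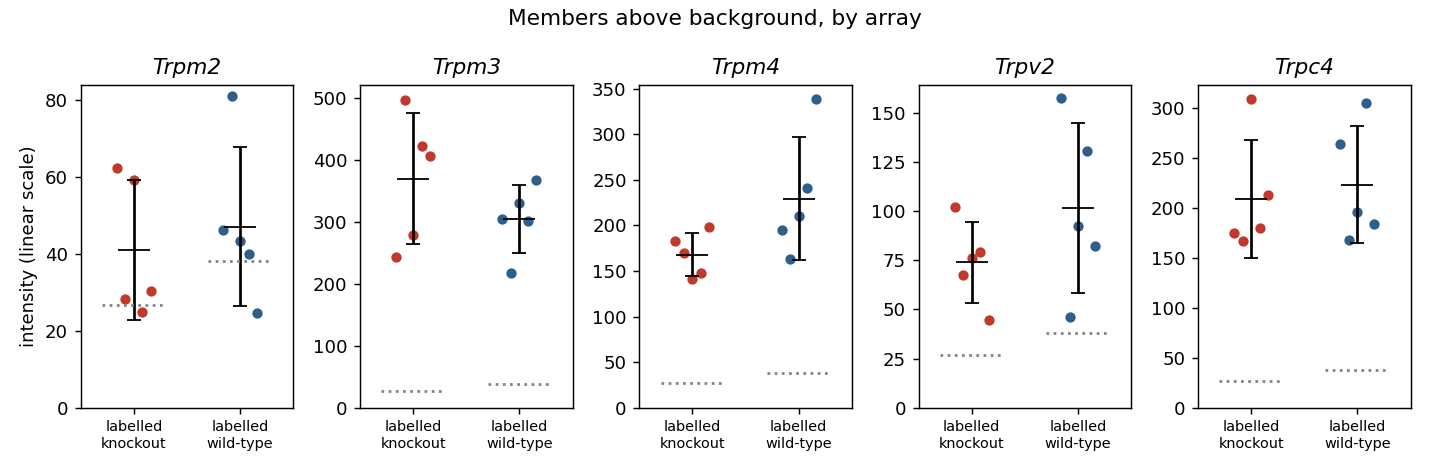
Intensity on the linear scale of the 5 members above background, each by its brightest probe set on average, 1 point per array in order of replicate number, with labelled knockout left of labelled wild-type; bars are the mean and SD of 5 arrays and dotted lines the median background limit of the group. The groups overlap in every panel, and in Trpm2 both lie around the limit.

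Trpm2, an ADP-ribose-gated calcium channel that also opens with warmth and oxidants, was at the edge of detection. Its probe set 1436225_at read 62.4, 28.3, 59.1, 24.8 and 30.2 in knockout replicates 1 to 5, against 46.2, 80.9, 43.4, 40.04 and 24.5 in wild-type replicates 1 to 5. The highest array was labelled wild-type, and the lowest arrays of both groups were nearly level. The means were 40.96 ± 18.2 in the labelled knockout mice and 47.0 ± 20.7 in those labelled wild-type (SD, n = 5 each). The log2 difference was -0.14 (SE 0.31, 95% interval -0.79 to 0.50, limma adjusted p = 0.868), and it turned to 0.02 without wild-type replicate 2, 0.08 with quantile normalization and 0.14 with median centring. The second probe set, 1459482_at, passed the limit on 6 arrays and read 25.4 to 48.98 in labelled knockout mice and 18.7 to 73.6 in labelled wild-type mice (log2 difference -0.28, SE 0.30).

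Trpm3, a channel that opens with heat and with the steroid pregnenolone sulphate, had 6 probe sets. Of these, 1456633_at and 1439026_at were above background on all 10 arrays, 1443723_at on 7, 1441966_at on 2 and the remaining pair, 1456923_at and 1457927_at, on 0. Probe set 1456633_at read 243, 498, 279, 423 and 406 in knockout replicates 1 to 5, against 305, 217, 330, 302 and 368 in wild-type replicates 1 to 5. Of the arrays labelled knockout, 3 were above every wild-type array, and the other 2 lay within the wild-type range. The means were 369.8 ± 106 in labelled knockout mice and 304.5 ± 55.4 in labelled wild-type mice (SD, n = 5 each), a log2 difference of 0.24 (SE 0.21, 95% interval -0.19 to 0.67, limma adjusted p = 0.646). The other probe set above background on all arrays, 1439026_at, gave 100.4 ± 29.5 in labelled knockout mice and 100.9 ± 52.0 in labelled wild-type mice, a difference of 0.06 (SE 0.29). Over the mean of all 6 probe sets the difference turned to -0.03.

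Trpm3 is also known as a choroid plexus transcript, and choroid plexus markers are given beside it. Ttr, Clic6 and Otx2 were above background on all 10 arrays. Knockout replicate 3, with 6161 for Ttr, read 279 on 1456633_at, the second lowest of its group, and 59.2 on 1439026_at, the lowest of its group. The other 12 markers of the list summed to 1338 on that array, the lowest of its group. That sum was 1636 to 1938 on the other arrays labelled knockout and 1312 to 1897 on those labelled wild-type. On average its largest parts were Clic6, Ccdc153 and Rarres2. The 13 choroid plexus and ependymal markers, of which 6 were above background, summed with Ttr to 1864 to 7500 on the arrays labelled knockout and 1508 to 2341 on those labelled wild-type. Kl, Folr1, Kcnj13, Sostdc1, Slc4a5, F5 and Foxj1 were not above background. The part of these cells in the Trpm3 values was not tested.

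Trpm4, which passes sodium and potassium when cytosolic calcium rises and is not calcium-permeable itself, came nearest to a difference among the members above background. Its probe set 1435549_at read 183, 170, 141, 148 and 198 in knockout replicates 1 to 5, against 194, 163, 210, 241 and 338 in wild-type replicates 1 to 5. Wild-type replicates 3, 4 and 5 were above every array labelled knockout, and wild-type replicates 1 and 2 lay within the knockout range. The means were 168 ± 23.9 in labelled knockout mice and 229 ± 67.1 in labelled wild-type mice (SD, n = 5 each), a log2 difference of -0.39 (SE 0.20, 95% interval -0.81 to 0.04, limma adjusted p = 0.437). Without wild-type replicate 5, the highest array, the difference was -0.24 (limma adjusted p = 0.618). Abcc8, the sulphonylurea receptor that joins TRPM4 in injured brain, was at -0.19 (SE 0.25).

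Trpv2, a relative of the capsaicin receptor that is abundant in macrophages and opens only at very high heat, had its wider spread in the mice labelled wild-type. Its probe set 1416935_at read 102, 67.7, 76.0, 79.0 and 44.7 in knockout replicates 1 to 5, against 158, 46.1, 92.2, 130 and 82.4 in wild-type replicates 1 to 5. The wild-type arrays spanned nearly the whole range of the knockout arrays and reached above it in 2 mice. The means were 73.9 ± 20.7 in labelled knockout mice and 101.7 ± 43.3 in labelled wild-type mice (SD, n = 5 each), a log2 difference of -0.34 (SE 0.28, 95% interval -0.93 to 0.26, limma adjusted p = 0.640). The 9 microglia and macrophage markers, of which 4 were above background, summed to 4860 to 7034 on the arrays labelled knockout and 6806 to 10453 on those labelled wild-type. That sum is mostly Csf1r, which read 4477 to 6213 on the arrays labelled knockout and 6241 to 9479 on those labelled wild-type. On the log2 scale Csf1r was at -0.58 (SE 0.16), Cx3cr1 at -0.65 (SE 0.35) and C1qa at -0.16 (SE 0.25). The probe set that represents C1qb was at -0.34 (SE 0.27) but passed the limit on only 6 arrays. C1qb counted as above background through another of its probe sets, so this value is that of a dim probe set. Not above background were P2ry12 at 0.39, Tmem119 at 0.36, Aif1 at -0.27, Itgam at -0.50 and Cd68 at -0.34. The part of these cells in the Trpv2 values was not tested, and in bulk tissue fewer cells of a type and less RNA per cell cannot be told apart.

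Trpc4, a receptor-operated channel that opens through Gq proteins and phospholipase C and is strong in the lateral septum, was nearly level. Its probe set 1451033_a_at read 175, 167, 309, 180 and 213 in knockout replicates 1 to 5, against 264, 168, 196, 305 and 184 in wild-type replicates 1 to 5. The lowest and the highest array of the 2 groups were nearly the same. The log2 difference was -0.09 (SE 0.21, 95% interval -0.54 to 0.36, limma adjusted p = 0.884), and it turned to 0.02 without wild-type replicate 4 and to 0.19 with median centring. Its other probe sets were at background: 1423579_a_at, which the annotation draws from the same source sequence as 1451033_a_at, read 0.827 to 9.27 in labelled knockout mice and 0.989 to 27.8 in labelled wild-type mice, and 1446366_at passed the limit on 1 array. The septum and striatum list, of which 9 of 11 measured genes were above background, summed to 10479 to 14072 on the arrays labelled knockout and 10863 to 14291 on those labelled wild-type. That sum is mostly Zic1 and Dlk1, and single striatal markers, named after their values were seen, stood further apart. Tac1, which encodes substance P, read 765 to 2035 on the arrays labelled knockout and 449 to 629 on those labelled wild-type (log2 difference 1.42, SE 0.21, limma adjusted p = 0.111, the smallest of all probe sets). Pde10a was at 1.60 (SE 0.32), Drd1 at 1.24 (SE 0.44), Penk at 0.93 (SE 0.33) and Dlk1 at -0.43 (SE 0.15). The rest above background were Nts at 0.41 (SE 0.18), Rgs9 at -0.25 (SE 0.22), Six3 at -0.19 (SE 0.17) and Zic1 at -0.0041 (SE 0.18). By direction alone, 5 of the 9 genes above background were higher and 4 were lower. Of the 11 genes 5 were higher and 1 was lower at an unadjusted p below 0.05, against 14% of all genes in either direction. Of the 11, 0 passed limma's adjusted threshold. The part of striatal tissue in the Trpc4 values was not tested.

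The 5 members that were not above background had low and scattered values, and no fold is given for them. Trpm8, the menthol and cold receptor, read 1.38, 0.387, 7.00, 0.658 and 4.71 in knockout replicates 1 to 5, against 14.7, 2.61, 26.3, 46.2 and 14.2 in wild-type replicates 1 to 5. All but wild-type replicate 4 were under the limit of their array, and 4 of 5 wild-type arrays lay above every knockout array. This gave the smallest p among the 18 probe sets (adjusted p = 0.224 by limma). Trpv1, the capsaicin receptor, read 2.62 to 15.9 in labelled knockout mice and 3.54 to 38.7 in labelled wild-type mice and passed the limit on wild-type replicate 5 alone. Trpv4, which opens with warmth and cell swelling, read 0.678 to 18.9 in labelled knockout mice and 1.21 to 22.1 in labelled wild-type mice. Trpa1, the irritant receptor, read 2.27 to 17.0 in labelled knockout mice and 3.74 to 41.6 in labelled wild-type mice. Trpc5, the closest relative of Trpc4, read 1.55 to 12.6 in labelled knockout mice and 2.16 to 27.6 in labelled wild-type mice. These last 3 were under the limit on all 10 arrays.

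Low values differed between the groups over the whole array, and most dim TRP probe sets differed in the same direction. The median probe set read 24.6 to 29.8 on the arrays labelled knockout and 32.0 to 44.8 on those labelled wild-type, with no overlap, although the arrays had been scaled to the same trimmed mean of 200.002. Of the 126 background probe sets 94 were lower in the mice labelled knockout, with a median log2 difference of -0.15. Of the 27302 probe sets not above background 73.1% were lower, with a median of -0.19, and of the 12 dim TRP probe sets 9 were lower, with a median of -0.21. The 17735 probe sets above background had a median of -0.02. Sensory ganglion markers were also lower, by a median log2 difference of -0.56 over the 5 measured genes, which is the value of Scn11a (SE 0.29). Scn10a, a sodium channel gene of pain-sensing neurons, was not above background. Scn11a alone was, and it read 33.7 to 72.3 on the arrays labelled knockout and 46.6 to 130 on those labelled wild-type. The 5 genes summed to 63.0 to 110.906 on the arrays labelled knockout and 110.922 to 280 on those labelled wild-type, so the groups nearly touched. The part of the shift in low values in the Trpm8, Trpv1 and sensory ganglion marker values was not tested.

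**Figure D4:**
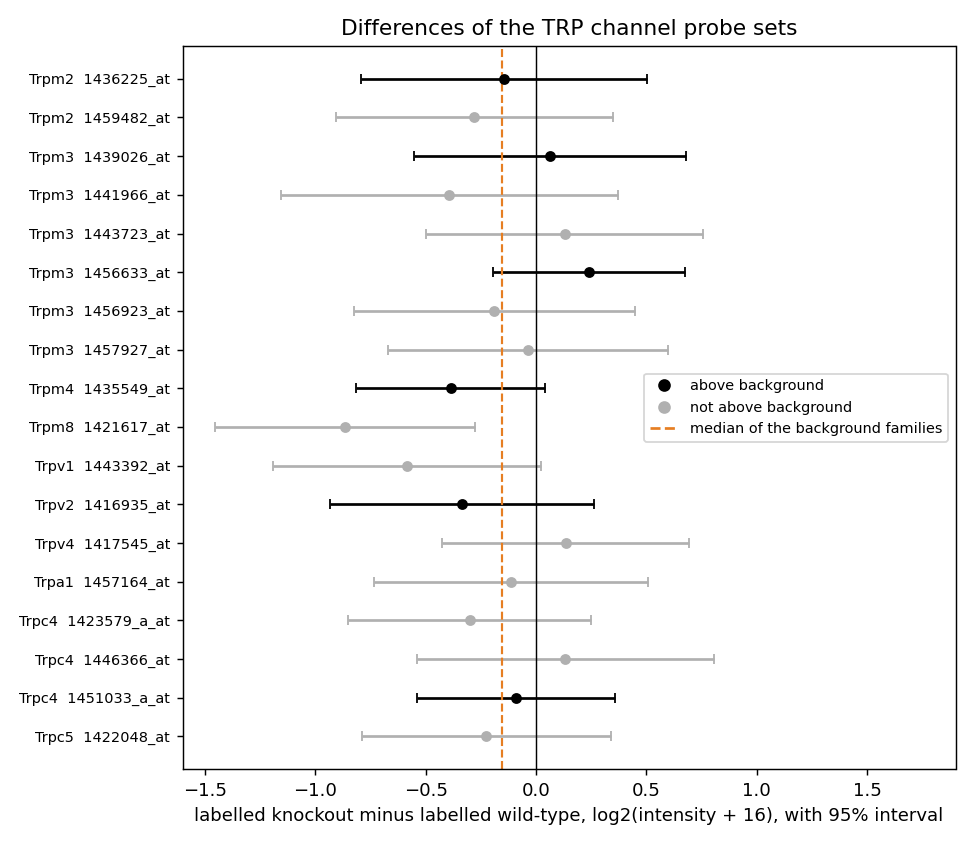
Difference between labelled knockout and labelled wild-type in log2(intensity + 16) for each of the 18 probe sets, with its 95% interval from limma; black, above background; grey, not above background; the dashed line is the median of the background families, -0.15. Every interval includes 0 except that of Trpm8, a probe set under the background limit on 9 of 10 arrays, and no adjusted p is below 0.224.

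On the brightest probe set of each gene, Trpm2 and Trpm3 set knockout replicates 1 and 3 and wild-type replicate 2 apart in opposite ways. Of all pairs of the 5 members above background this was the most strongly opposed, and it was named after the values were seen. Knockout replicates 1 and 3 and wild-type replicate 2 were 0.46 to 0.68 above their group mean in Trpm2 and at -0.53 to -0.34 from it in Trpm3 on the log2 scale. The other 7 arrays were between -0.58 and 0.04 in Trpm2 and between 0.0083 and 0.46 in Trpm3. As 3 arrays lie apart from the other 7, no correlation is given. The second probe sets shared this in part: on 1459482_at (Trpm2) knockout replicate 1 and wild-type replicate 2 were the highest of their groups but knockout replicate 3 was the lowest, and on 1439026_at (Trpm3) knockout replicates 3 and 1 were the lowest of their group but wild-type replicate 2 was the middle one. The background limit was highest on 2 of the 3 arrays, at 50.9 on knockout replicate 1 and 74.1 on wild-type replicate 2, and was 25.8 on knockout replicate 3. The part of that in the pattern was not tested.

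**Figure D5:**
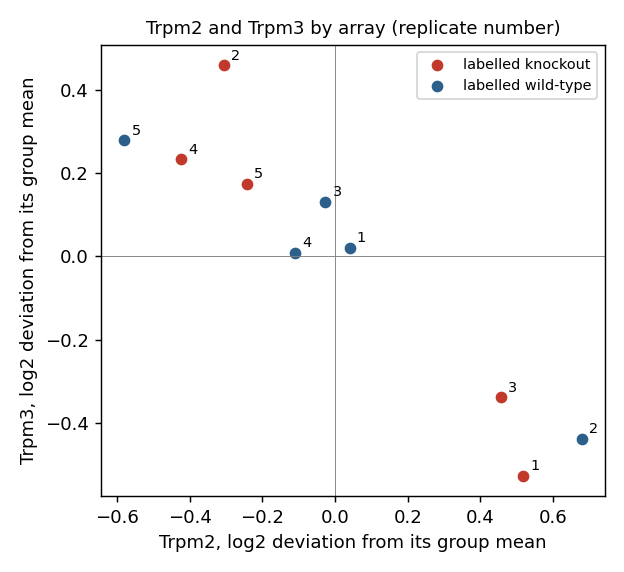
Deviation of each array from its group mean in log2(intensity + 16), for Trpm2 (1436225_at, horizontal) and Trpm3 (1456633_at, vertical), with labelled knockout in red and labelled wild-type in blue and the replicate number beside each point. Knockout replicates 1 and 3 and wild-type replicate 2 lie at the lower right, and the other 7 arrays run from the upper left to the origin, near which wild-type replicate 1 lies.

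The genes with the pattern most like each member over the 10 arrays, after removal of the group means, were looked up among 8652 genes above background on every array. For Trpm3 they were Fermt2 (Pearson r = 0.91), Sema4c (0.91) and Rnf145 (0.90). For Trpc4 they were Otub2 (0.98), Echs1 (0.95) and Zmat4 (0.95), for Trpm4 they were Polr2f (0.95), Col16a1 (0.93) and Mrpl24 (0.92), and for Trpv2 they were Gripap1 (0.95), Uimc1 (0.95) and Rilpl2 (0.93). With 10 arrays and this many genes, high values occur without any shared biology, and these are descriptions only.

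The rest of the TRP family gave the same picture. Of 18 other TRP genes, 14 had a probe set of their own, and Trpc1, Trpc7, Trpm6, Trpm7 and Mcoln1 were above background. Counted by each gene's brightest probe set, 0 of the 14 passed limma's threshold and 1 had an unadjusted p below 0.05, against 14% of all genes counted the same way. That was Trpm7, an ion channel fused to a kinase, whose probe sets disagreed: 1431355_s_at was at -1.12 on the log2 scale (SE 0.30, limma adjusted p = 0.171) and 1416799_at at 0.51 (SE 0.23, limma adjusted p = 0.367), and averaging over the gene's probe sets gave -0.16. Probe set 1431355_s_at read 188, 265, 83.5, 162 and 177 in knockout replicates 1 to 5, against 196, 287, 670, 379 and 529 in wild-type replicates 1 to 5, so that wild-type replicates 3, 4 and 5 were above all other arrays. Trpc1, which joins Trpc4 and Trpc5 in mixed channels, was at 0.35 (SE 0.22), Trpc7 at -0.39 (SE 0.23), the magnesium channel gene Trpm6 at -0.23 (SE 0.21) and the lysosomal channel gene Mcoln1 at 0.38 (SE 0.26). Trpc1 turned to -0.07 and Mcoln1 to -0.14 with averaging over the probe sets of each gene, and Trpm6 to 0.05 with median centring.

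Genes that supply or couple to TRP channels were also without calls. Of 13 other temperature- or touch-gated channels 12 were measured and 7 were above background. The potassium channel Kcnk2 (TREK-1), which heat and stretch open, was at 0.14 (SE 0.17) and the stretch channel Piezo1 at -0.01 (SE 0.23), whose sign turned under several settings, while Piezo2 and Kcnk4 were not above background. Of this list 2 genes had an unadjusted p below 0.05, Tmem63b at -0.87 (SE 0.24, limma adjusted p = 0.179) and the acid-sensing channel gene Asic3, which was not above background, and Asic1 was at -0.32 (SE 0.18). Of 13 genes of ADP-ribose and oxidant supply to TRPM2, 11 were measured and 10 were above background. In this list Parp1, which makes poly(ADP-ribose), was at 0.12 (SE 0.17), Nudt9, which degrades ADP-ribose, at -0.06 (SE 0.15), Nudt5 at 0.22 (SE 0.26) and the deacetylase genes Sirt1 and Sirt2 at 0.35 (SE 0.19) and -0.37 (SE 0.13). Sirt2 alone had an unadjusted p below 0.05.

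The phospholipase C list for TRPC channels had 22 of 24 genes measured and 17 above background, with 2 higher and 2 lower at an unadjusted p below 0.05. These counts, and those of the other lists, are to be read against the 14% of all genes. Homer1, a synaptic scaffold gene, was at 1.37 (SE 0.39, limma adjusted p = 0.180), the calcium store sensor gene Stim2 at 0.54 (SE 0.16, limma adjusted p = 0.205) and the diacylglycerol kinase gene Dgka at -0.70 (SE 0.20, limma adjusted p = 0.192). Stim1 was at 0.15 (SE 0.26) and the store-operated channel gene Orai1 at 0.16 (SE 0.28), and Trpc4ap was not above background. With median centring Homer1 at 1.65 and Stim2 at 0.82 passed (limma adjusted p = 0.036 and 0.039), whereas averaging over each gene's probe sets put Homer1 at 0.32 and Stim2 at 0.18 (limma adjusted p = 0.499 and 0.625). Among 21 partners and modulators, 18 were measured and 16 above background, with Fgf13 at 0.36 (SE 0.14), the potassium channel gene Kcnj11 at -0.66 (SE 0.28) and S100a1 at -0.41 (SE 0.20). Of these, Fgf13 passed with median centring at 0.64 (limma adjusted p = 0.044) and was at 0.16 when its probe sets were averaged (limma adjusted p = 0.627), where Kcnj11 was at -0.33. Median centring moved the median difference of all probe sets from -0.13 to 0.15. It called 550 probe sets, and the 3 named genes that passed with it were all on the higher side.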

How the data were processed

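Gene expression was measured in laser-cut preoptic tissue of 10 LPS-treated mice, 5 labelled KO and 5 labelled WT by title, with each array taken as 1 mouse. The authors deposited linear-scale intensity values, 1 per probe set. GCOS is named per the submitters' processing notes, with version and settings not given in the sources used here. Each array had been scaled by the authors to the same mean over its middle 96% of probe sets, as the values show. Of 45101 probe sets 64 were controls, 34945 named 1 gene, 932 several and 9160 none, and 34741 of those with 1 gene matched a RefSeq table (GRCm38.p6) by Entrez ID. The table names no genome build, so gene coordinates are not given and those of promoters are RefSeq's.

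All 45037 non-control probe sets were tested with limma (lmFit, eBayes with an intensity trend) on log2(intensity + 16), labelled knockout minus labelled wild-type, genotype as the only term, with Benjamini-Hochberg adjustment over all of them. Fold changes on this scale understate the change of dim genes. A gene was represented by its probe set with the highest mean (names ending in _x_at last). The fit was tested on simulated data. No 2 arrays held the same value at more than 0.00443% of probe sets. Named genes are all members, other TRP genes above background, up to 3 of each further list with the smallest p and 11 set by name, of which Cd38 had no probe set of its own. Alternatives changed the pseudocount (1 or 64), the scaling (quantile, median centring), the filter on dim probe sets, the probe sets used per gene, the trend and the array weights; others added a block (replicate number, spike-in signal), moved the background limit or dropped each array in turn. The members and lists were chosen with earlier results of these data known. The replicate numbers in the labels were taken as separate mice. The versions were limma 3.58.1 in R 4.3.3 for the fits, and pandas 2.3.3, matplotlib 3.10.9 and numpy 2.4.6 in Python 3.11.15 for the rest.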

Additional observations from a re-analysis of the deposited data

Results flagged for a closer look

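Of 20 groups of 5 arrays examined, 2 for each member, 1 held an array far from the other 4 by Dixon's test, and chance alone flags about 1 group in 20. Trpv4 read 22.05 in wild-type replicate 3, against 1.21 to 4.52 in the other wild-type arrays. All 5 values were under the background limits of their arrays.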

How the results depend on the processing

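Under each of the 22 other settings of the fit 0 member probe sets or genes passed limma's threshold, with the smallest member adjusted p between 0.157 and 0.414. The count over all probe sets or genes was 0 except for 550 with median centring, 8 with 1 probe set per gene and the dimmest 40% of genes left out, 1 with averaging over the probe sets of each gene and 1 with the replicate block; leaving out single arrays gave 0 to 1, with 1 without knockout replicate 1 and 1 without knockout replicate 4. The filter on dim genes left 5 of 10 members and the filter on probe sets 9 of 18. No pairing by replicate number was seen. Same-numbered arrays correlated at -0.05 to 0.03 in their deviations from the group means. Of the arrays labelled knockout 1, replicate 4, correlated best with its own number. Such correlations cannot show that the mice were not paired. The count of members above background was 5, and 3 both with the 99th percentile and with all 10 arrays required; leaving out single arrays, with 8 of the other 9 required, gave 4 to 5, Trpm2 being the gene lost. Of 616 values for 28 named genes 587 kept direction and side of the threshold, 26 turned in direction and 3 passed. With quantile normalization Trpm2 was at 0.0796 and Piezo1 at 0.0818. With median centring Trpm2 was at 0.14, Trpc4 at 0.19, Trpm6 at 0.0451, Piezo1 at 0.27, Nudt9 at 0.22 and Abcc8 at 0.0862. With averaging over the probe sets of each gene Trpm3 was at -0.0300, Trpc1 at -0.0712, Mcoln1 at -0.14, Nudt5 at -0.0510 and Orai1 at -0.0234. Piezo1 was at 0.0160 with the spike-in block, and over only the 7 spiked arrays Piezo1 was at 0.10, Parp1 at -0.00066, Nudt5 at -0.20 and Stim1 at -0.0241. Without single arrays Trpm2 lay between -0.29 and 0.0248, Trpc4 between -0.23 and 0.0238, Piezo1 between -0.12 and 0.10, Nudt9 between -0.15 and 0.0466, Nudt5 between -0.0170 and 0.35 and Stim1 between -0.0431 and 0.24. The causes were not tested. Signal close to background limits what can be said of Trpm2 and of the 5 members below it.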
